A study of Drosophila melanogaster with 70 samples.

Results

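The 8 genes described here have known roles in neurons and glia of the late Drosophila melanogaster embryo: elav, pros, para, brp, Syt1, nSyb, Syx1A and repo. They were taken by name, all 8 were found in the release 6 gene table that matches the dm6 assembly, and they are 8 of 13842 protein-coding genes on the arms 2L, 2R, 3L, 3R and X. For each gene the domain holding it, the boundaries inside it and the distance of both annotated ends to the nearest domain boundary were read. The boundaries come from Hi-C, in which DNA stretches that touch in the fixed nucleus are joined end to end and read as pairs. The lists hold positions of boundaries and no expression values, so the words neuron and glia rest on the genes' known roles.

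The 3 boundary lists were made from pools of hand-staged embryos. The stage 15 list (14 to 16 h after egg laying) is named in the labels of 8 libraries, 2 for each combination of sex and maternal RNAi (mof or control), all in an Sxl-GFP background and sorted by GFP into males and females. Which of the 8 were pooled is not stated, so this list may mix mof RNAi and control RNAi embryos. The stage 5 mof RNAi list stands for 2 libraries and the stage 5 control list for 3, both from unsexed blastoderm embryos in nuclear cycle 14. In every group the mothers carried the maternal driver mat-a-tubGal4 with an RNAi stock, 58281 for mof and 36304 for control, and were mated to siblings. The driver stock is given as 7063 at stage 5 and as 7062 at stage 15, so stage and driver stock cannot be told apart. For the mof RNAi Hi-C libraries the strain label names control RNAi mothers beside the number of the mof stock, and the groups here follow the titles. MOF is the enzyme that acetylates lysine 16 of histone H4.

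A topological domain is a stretch of chromatin whose parts touch each other more than they touch the neighbouring stretches. Boundaries between domains in flies often lie at the ends of active genes. At stage 5 the nervous system has not yet formed. By stage 15 the nerve cord holds differentiating neurons and glia. In neurons, elav encodes an RNA-binding protein that guides alternative splicing, para the voltage-gated sodium channel, and brp a scaffold of the presynaptic active zone. Syt1 encodes the calcium sensor of vesicle fusion, nSyb the SNARE protein of the synaptic vesicle and Syx1A its partner SNARE in the plasma membrane. The homeodomain factor encoded by pros passes from a dividing neuroblast to its daughter cell, and that encoded by repo acts in glia.

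The stage 15 list held 2785 boundaries, the stage 5 mof RNAi list 2499 and the stage 5 control list 2591. Boundaries were called on bins of 2.5 kb, with distances taken to interval midpoints, so values that differ by less than 2.5 kb are not separable. Each list was taken as 1 pooled list without replicates, read depth is unknown, and no p-value was computed. A difference between lists therefore has no replicate check. The stage 5 maps had left out 4746 of 52086 bins after mof RNAi (9.11%) and 4772 of 52252 in control (9.13%), while the boundary numbers of the stage 15 list show none left out. The stage 5 domains of nSyb and repo spanned no such bin and those of the other 6 genes from 1 to 5, and the part of left-out bins in the differences between stages was not tested. Each boundary carries a score of the authors on an unstated scale. It was used only as a rank within its own list, where rank 1 is the most negative score.

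Most of these genes lay in long domains at stage 5 and in shorter ones at stage 15. The domain that covers the largest part of a gene is called its domain here. The median over the 8 genes was 36.3 kb at stage 15, 86.9 kb at stage 5 after mof RNAi and 90 kb at stage 5 in control. The medians over all protein-coding genes were 42.5, 52.5 and 47.5 kb in the same order. Long genes lay in longer domains. Among genes of 0.5 to 2 times the length, the control median was 72.5 kb for pros and para, 59.7 kb for brp and 52.5 kb for Syt1. It was 42.5 kb for elav, nSyb and Syx1A and 43.8 kb for repo. The domain was shorter by more than 1 bin at stage 15 than in stage 5 control for 5 of the 8 genes (elav, pros, brp, Syt1 and nSyb), beside 39.9% of 13820 protein-coding genes. It was at most 0.5 times as long for 4 of them (elav, pros, Syt1 and nSyb), beside 16.6% of all genes. For pros the piece that counts as its domain is a different one in the 2 lists, since the gene is divided. That domain held 47.4% of pros at stage 15 and 30.3% in control. The next pieces in control held 25.3% each, in domains of 20 kb. Without pros the domain was shorter at stage 15 for 4 of 7 genes. The other 3 genes, para, Syx1A and repo, had the same domain in both lists, as did 31.5% of all genes, and none had a longer one (28.1% of all genes). Genes with a long control domain had a shorter one at stage 15 more often than all genes did. Among the 2430 genes with a control domain of 70 to 105 kb, the range of the 6 longest of these 8, 64.5% did, beside 5 of the 6. A domain of the same length was found for 16.3%, beside 1 of the 6 (para). Picking genes by a long control domain by itself favours shorter values in another list. No reverse pick of genes with long stage 15 domains was made. When each list was reduced to the 50% of boundaries with the most negative scores, 2 of the 8 genes (para and Syt1) had a shorter domain at stage 15, in place of 5, beside 37.9% of all genes in the same reduced lists. In these reduced lists the domain of elav was longer, at 250 kb at stage 15 and 130 kb in control, as was that of pros, at 162.5 kb at stage 15 and 55 kb in control (longer in 38.8% of all genes).

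**Figure D1:**
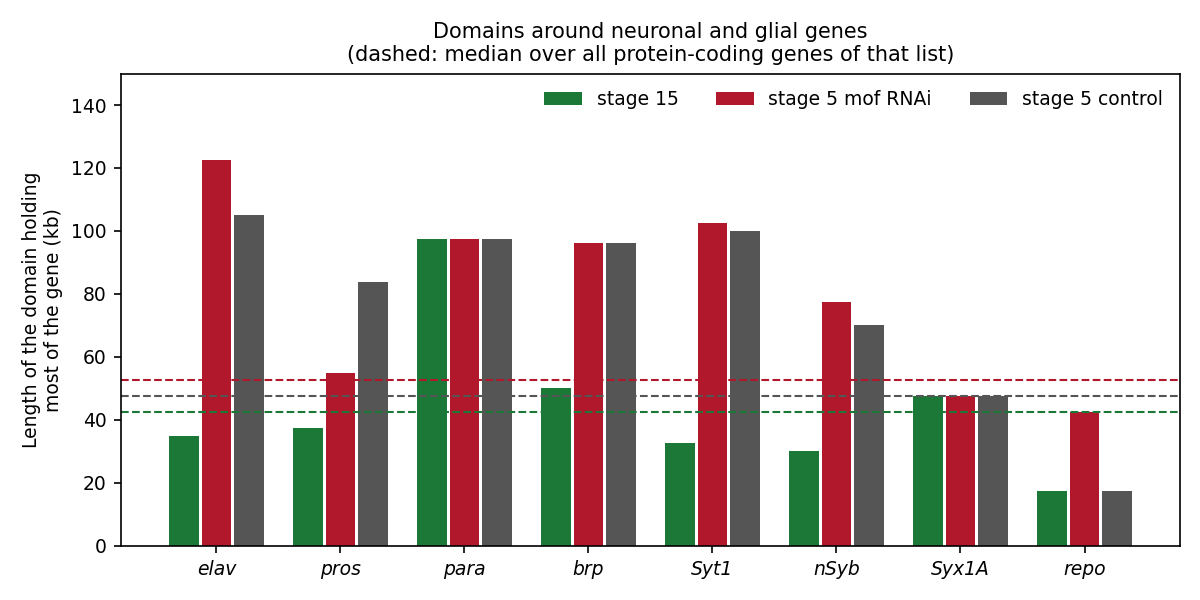
Length in kb of the domain that covers the largest part of each gene (bars). The lists are stage 15, stage 5 mof RNAi and stage 5 control. Dashed lines mark the medians over all protein-coding genes of each list (42.5, 52.5 and 47.5 kb). The stage 15 bar is the shortest for elav, pros, brp, Syt1 and nSyb, the 3 bars are level for para and Syx1A, and the mof RNAi bar stands above the other two for repo.

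After mof RNAi, 4 of the 8 genes (para, brp, Syt1 and Syx1A) kept the control domain at stage 5, with both ends within 2.5 kb, beside 59.0% of 13798 protein-coding genes. The domain was longer by more than 1 bin for elav, nSyb and repo, and shorter for pros. Of all genes 24.1% had a longer and 16.9% a shorter domain. In the lists reduced to the 50% most negative scores, the differences at nSyb, repo and pros were gone. There the mof RNAi and control domains were the same for 7 genes, beside 59.1% of all genes, and elav lay in no domain of the mof RNAi list. None of the 8 domains was at most 0.5 times as long after mof RNAi (5.83% of all genes). Among the 2412 genes with a control domain of 70 to 105 kb, 27.9% had a shorter one after mof RNAi, beside 1 of the 6 (pros), and 48.2% one of the same length, beside 3 of the 6. Set against the mof RNAi list, with which the stage 15 list was also compared, 6 of the 8 genes (all but para and Syx1A) had a shorter domain at stage 15, beside 44.1% of 13796 genes, and 4 (elav, Syt1, nSyb and repo) one at most 0.5 times as long, beside 20.2%. The domain was the same for para and Syx1A, 2 of the 8, beside 26.8%, and longer for none, beside 27.5%. These 3 comparisons share their lists and are not independent.

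At stage 15, 4 of the 8 genes had an end within 2.5 kb of a boundary (pros, brp, Syt1 and Syx1A), where 34.5% of all protein-coding genes did. After mof RNAi at stage 5 it was 3 of 8 (pros, brp and Syx1A) beside 29.5%. In stage 5 control it was 4 of 8 (pros, brp, nSyb and Syx1A) beside 31.6%. These shares of all genes, like those that follow for the same calls, are not matched for gene length. Among genes of like length, in the range used above for domain lengths, the share at a boundary was higher for each of the 8. At stage 15 it ran from 36.5% for repo to 52.7% for Syt1. After mof RNAi it ran from 30.7% for repo to 47.8% for brp, and in control from 33.3% for repo to 49.5% for brp. The 3 genes pros, brp and Syx1A were at a boundary in every list, as were 21.0% of all genes. The genes elav, para and repo were at a boundary in no list, as were 55.9%. Between lists the call differed for Syt1 and nSyb. Syt1 was at a boundary at stage 15 and not in control, as were 10.7% of all genes, nor after mof RNAi (12.3%). nSyb was at one in control and not at stage 15, as were 7.74%, nor after mof RNAi (5.09%). None of the 8 was at one after mof RNAi and not in control (3.06%) or not at stage 15 (7.33%). Just inside the limit of 2.5 kb lay the left end of Syt1 at stage 15 (2.33 kb) and the right end of nSyb in stage 5 control (2.25 kb). Just outside it lay the right end of Syt1 at stage 15 (2.52 kb) and that of repo in every list (2.90 kb).

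**Figure D2:**
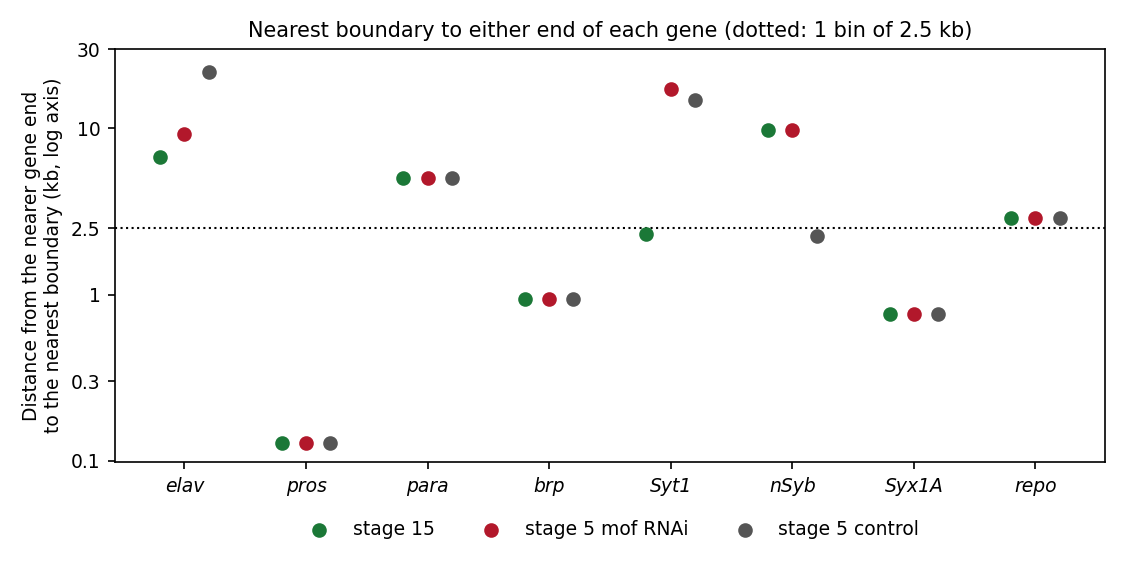
Distance in kb (log axis) from the nearer annotated end of each gene to the nearest boundary midpoint, 1 point for each list; the dotted line marks 1 bin of 2.5 kb. The points of pros, para, brp, Syx1A and repo lie at the same height in all 3 lists, while those of elav, Syt1 and nSyb differ.

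The gene bodies of pros (79.1 kb) and para (78.1 kb) are longer than 99% of protein-coding genes, and brp (37.8 kb) and Syt1 (27.7 kb) are also long. elav spans 14.0 kb, nSyb 7.41 kb, Syx1A 4.16 kb and repo 3.41 kb. Boundaries lay inside pros and Syx1A, 2 of the 8 genes, in each list. With midpoints at least 1 bin from both ends of the gene it was pros alone. Genes as short as Syx1A and repo cannot meet this rule, whatever their boundaries. Of all protein-coding genes 12.5% held a boundary at stage 15, 11.5% at stage 5 after mof RNAi and 11.8% in stage 5 control. In all, 7 boundaries at stage 15, 4 after mof RNAi and 7 in stage 5 control lay inside one of the 8 genes or within 2.5 kb of an end. All 4 of the mof RNAi boundaries had a partner within 2.5 kb in control, as had 81.6% of the 2499 boundaries of that list. At stage 15, 3 of those 4 had a partner, beside 59.9%. Of the 7 boundaries in control, 4 had a partner in the mof RNAi list and 4 in the stage 15 list, beside 78.7% and 61.7% of all 2591. Partners of the 7 at stage 15 numbered 3 in the mof RNAi list and 4 in the control list, beside 53.8% and 57.4% of all 2785.

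**Figure D3:**
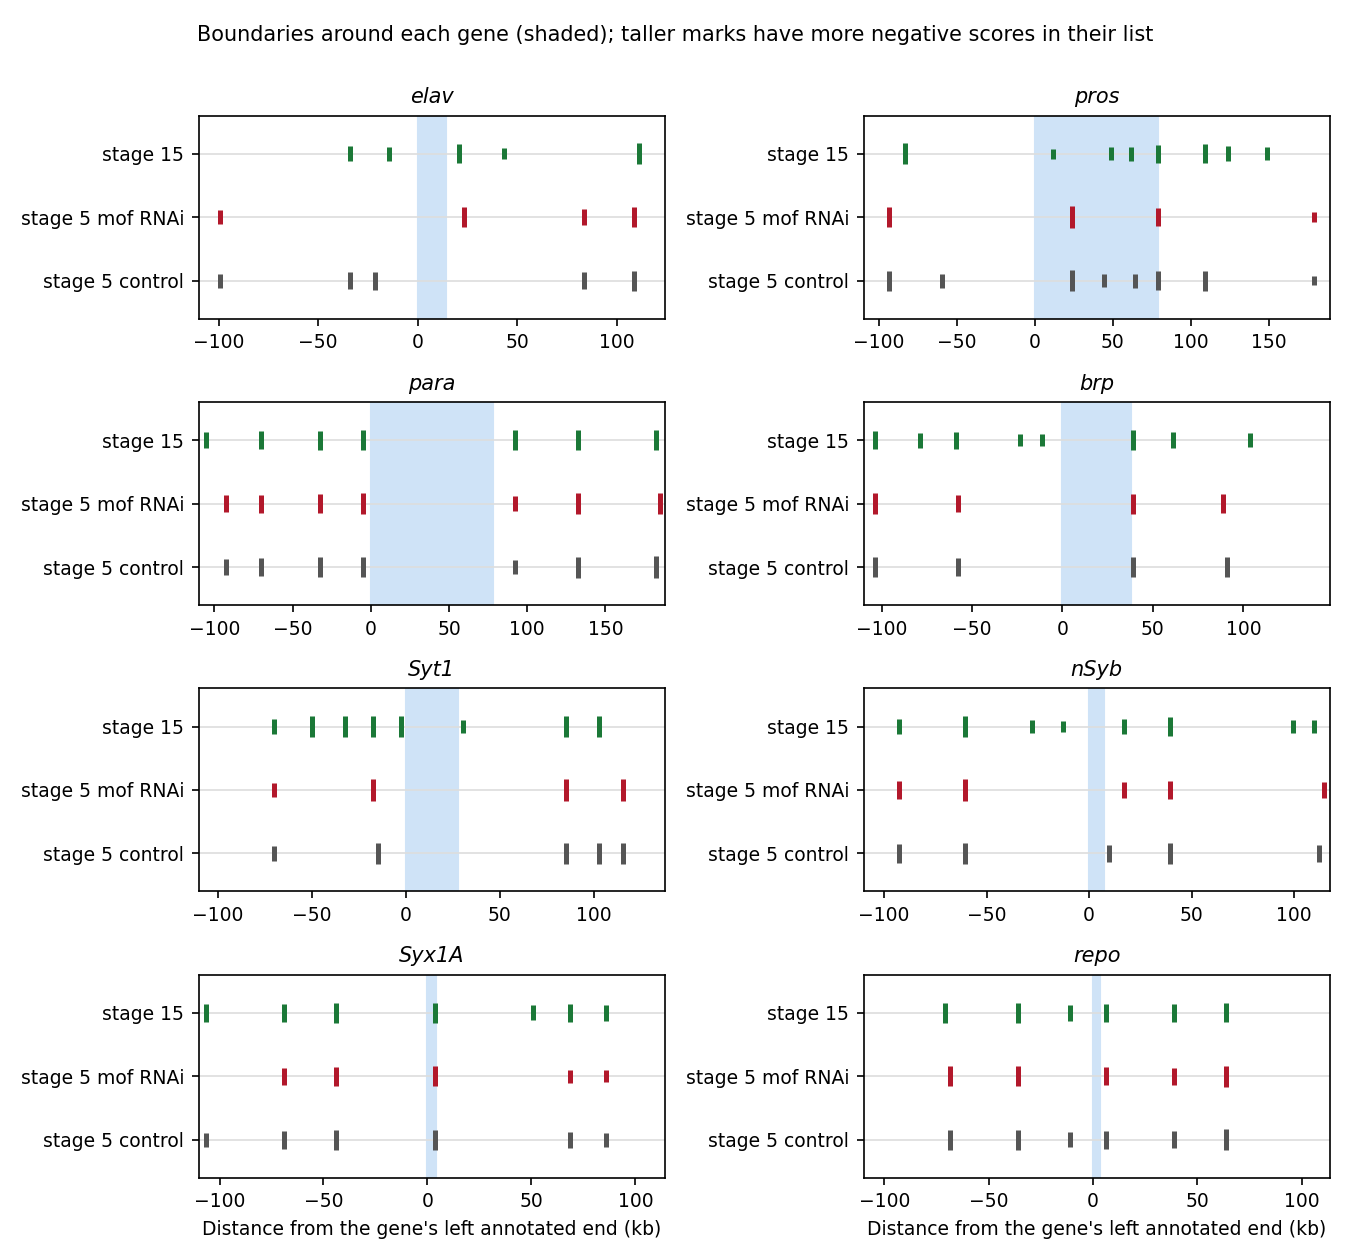
Boundaries (vertical marks) around each gene, whose annotated body is shaded, in kb from its left annotated end, with the 3 lists stacked; a taller mark has a more negative score within its list. Marks stand inside pros and Syx1A in every list, line up at both sides of para in all 3, and are more closely spaced beside elav, brp, Syt1 and nSyb at stage 15.

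Among the regulators of cell fate, pros was divided by boundaries in every list. The gene lies on 3R from 11328480 to 11407627. At stage 15 it held 4 boundaries, 11.5, 49.0, 61.5 and 79.0 kb from its left end. After mof RNAi at stage 5 it held 2, at 24.0 and 79.0 kb. In stage 5 control it held 4, at 24.0, 44.0, 64.0 and 79.0 kb. The boundary at 79.0 kb, on 3R from 11406251 to 11408750, lay 0.127 kb inside the right end of pros in all 3 lists and 0.418 kb from an end of mRpL40, which encodes a mitochondrial ribosomal protein. Its scores ranked 1033 of 2785 at stage 15, 915 of 2499 after mof RNAi and 876 of 2591 in control.

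The boundary 24.0 kb inside pros was present in both stage 5 lists and is the strongest by rank within the gene. It ranked 114 of 2499 after mof RNAi and 297 of 2591 in control, and lay 0.631 kb from an end of KP78a, a protein kinase gene whose listed span lies within that of pros. At stage 15 the nearest boundary was 12.5 kb away, and that one, 11.5 kb from the left end of pros, ranked 2614 of 2785 with a positive score (0.101). The 2 inner control boundaries at 44.0 and 64.0 kb, which ranked 1944 and 1861 of 2591, were missing after mof RNAi. The second of them had a stage 15 partner 2.5 kb away and the first had its nearest at 5 kb. The longest piece of pros within 1 domain was 47.4% of the gene at stage 15, 69.5% after mof RNAi and 30.3% in control. Of the 440 protein-coding genes from 0.5 to 2 times as long as pros, 63.0% held at least 1 boundary at stage 15, 60.7% after mof RNAi and 58.9% in control. At least as many as in pros were held by 1.82% of them at stage 15, 22.7% after mof RNAi and 1.59% in control. The counts for pros include the boundary at 79.0 kb, which lay less than 1 bin from the right end of the gene.

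The glial gene repo (3R, 18236192 to 18239602) lay in a domain of 17.5 kb at stage 15, of 42.5 kb at stage 5 after mof RNAi and of 17.5 kb in stage 5 control. The right end of this domain was the same in all 3 lists, 2.90 kb from repo and 0.031 kb from an end of 14-3-3epsilon, which encodes a phosphoprotein-binding adaptor. The left end lay 11.2 kb from repo at stage 15 and in control, 0.058 kb from Non3. That boundary was not called after mof RNAi, where the next one lay 36.2 kb from repo. In the lists reduced to the 50% most negative scores it was absent from all 3, and the domain of repo was 42.5 kb long in each. In the full lists repo shared its domain with 9 other whole protein-coding genes after mof RNAi, against 2 in control. Those 2 were CG7156 and Mdh2, a mitochondrial malate dehydrogenase gene. The missing boundary ranked 1647 of 2591 in control, in the less negative part of the list, and 1621 of 2785 at stage 15. A length ratio of mof RNAi over control as low as that of repo (2.43) or lower was found for 93.8% of all genes.

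The pair of boundaries that enclosed elav was a different one in each list. The gene lies near the left tip of X, from 509235 to 523226, and held no boundary. At stage 15 its domain was 35 kb long, from 14.2 kb left of elav to 6.77 kb right of it, and held 2 other whole genes, arg and svr. After mof RNAi at stage 5 the domain was 122.5 kb long, from 99.2 kb left to 9.27 kb right, with 14 other whole genes. In stage 5 control it was 105 kb long, from 21.7 kb left to 69.3 kb right, with 7 other whole genes. A ratio of stage 15 over control as low as that of elav (0.333) was found for 7.86% of all genes.

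To the right of elav a boundary separated it from all or most of Appl, the neuronal gene of the amyloid precursor protein family, at stage 15 and after mof RNAi. It lay on X from 528751 to 531250 at stage 15, its midpoint 0.501 kb short of Appl. After mof RNAi it lay 1 bin further, from 531251 to 533750, its midpoint 2.00 kb inside Appl. It ranked 924 of 2785 at stage 15 and 460 of 2499 after mof RNAi. In control the nearest boundary was 42.5 kb from the stage 15 position, and elav and the whole of Appl lay in 1 domain. To the left of elav, the control boundary from 486251 to 488750, 0.081 kb from an end of CG18273 and of rank 1050 of 2591, was 7.5 kb from the nearest stage 15 boundary. The left end of the mof RNAi domain, 99.2 kb from elav, lay inside the proneural gene l(1)sc. It lay 0.279 kb from the left end of that gene and was also called in control.

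The sodium channel gene para (X, 16455027 to 16533096) lay whole in a domain of 97.5 kb whose ends did not differ among the 3 lists. No list had a boundary inside it, although 62.6% of the 446 protein-coding genes of 0.5 to 2 times its length held at least 1 at stage 15, 61.0% after mof RNAi and 59.2% in control. The left end of the domain lay 5.03 kb from para and 1.34 kb from eIF4H1, a translation initiation factor gene, and the right end lay 14.4 kb from para and 0.020 kb from CG9902. The left boundary stood among the more negative scores throughout, at rank 440 of 2785 at stage 15, 390 of 2499 after mof RNAi and 458 of 2591 in control. The right one ranked 449 of 2785 at stage 15, 1721 of 2499 after mof RNAi and 1853 of 2591 in control. It was thus near the left one in rank at stage 15 and far behind it in both stage 5 lists.

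Of the genes for vesicle release, brp (2R, 9503765 to 9541565) had a boundary 0.935 kb beyond its right end in all 3 lists, 0.553 kb from CG1888. It ranked 652 of 2785 at stage 15, 497 of 2499 after mof RNAi and 684 of 2591 in control. The domain to its left was 50 kb long at stage 15 and 96.3 kb long in both stage 5 lists. The left end of the stage 5 domain, 0.204 kb from Camta, which encodes a calmodulin-binding transcription activator, was still called at stage 15, 1.25 kb away. At stage 15, 2 boundaries lay between them. The nearer one was 11.3 kb from brp and 1.67 kb from the Wnt ligand gene Wnt2, and ranked 2377 of 2785, among the least negative scores. The whole of Wnt2 lay in the domain of brp in each list. The stage 5 domain spanned 5 left-out bins in either list. In the lists reduced to the 50% most negative scores, the domain of brp was 97.5 kb long at stage 15. It was 96.3 kb long in both stage 5 lists.

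Syt1 (2L, 2772327 to 2799979) was enclosed by boundaries on either side at stage 15. Its domain was 32.5 kb long at stage 15, 102.5 kb after mof RNAi at stage 5 and 100 kb in stage 5 control. At stage 15 the left boundary lay 2.33 kb and the right one 2.52 kb from the gene, and the domain held 2 other whole genes, CG15399 and HINT1. In both stage 5 lists the domain held 24 other whole genes. The nearest boundary to an end of Syt1 lay 17.3 kb away after mof RNAi and 14.8 kb away in control. A ratio of stage 15 over control as low as that of Syt1 (0.325) was found for 6.91% of all genes.

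The stage 15 boundary left of Syt1, from 2768751 to 2771250, lay 0.069 kb from an end of the mitochondrial carrier gene colt and ranked 140 of 2785. The boundary right of Syt1, 2.76 kb from daw, an activin-type ligand gene, ranked 2126 of 2785. The ends of the stage 5 domain had some of the most negative scores of their lists. The left one ranked 10 of 2499 after mof RNAi and 39 of 2591 in control, and the right one 35 of 2499 and 35 of 2591. Both were called again at stage 15 within 2.5 kb, so the stage 5 domain had kept its ends and gained 2 boundaries inside. In lists reduced to the 50% most negative scores, the stage 15 domain of Syt1 was 87.5 kb long, against 100 kb in control.

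The vesicle SNARE gene nSyb (3L, 1630348 to 1637752) had a boundary at its right end in stage 5 control only. That boundary lay from 1638751 to 1641250, 2.25 kb from nSyb and 0.289 kb from Bgb, which encodes a partner of Runt family factors, and ranked 1414 of 2591. At stage 15 and after mof RNAi the nearest boundary was 9.75 kb from the right end of nSyb, 7.5 kb from the control boundary, at an end of CG17249. It ranked 1679 of 2785 at stage 15 and 1569 of 2499 after mof RNAi. The domain of nSyb was 30 kb long at stage 15, 77.5 kb after mof RNAi and 70 kb in control. Its left end at stage 5, 60.3 kb from the gene, ranked 21 of 2499 after mof RNAi and 23 of 2591 in control. This boundary was also called at stage 15, when 2 more lay between it and nSyb. The nearer one, 12.8 kb from the gene, ranked 2518 of 2785 and had a positive score (0.0448). In the lists reduced to the 50% most negative scores the domain of nSyb was 100 kb long in all 3.

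The plasma membrane SNARE gene Syx1A (3R, 24101600 to 24105763) held the same boundary in all 3 lists. It lay from 24103751 to 24106250, with its midpoint 0.763 kb inside the right end of the gene. It ranked 598 of 2785 at stage 15, 489 of 2499 after mof RNAi and 413 of 2591 in control. Of the 4900 protein-coding genes of 0.5 to 2 times the length of Syx1A, 11.7% held a boundary at stage 15, 10.2% after mof RNAi and 10.9% in control. To the left, 81.7% of Syx1A lay in a domain of 47.5 kb in each list, together with SMC1, which encodes a cohesin subunit. The left end of this domain lay 0.190 kb from the heat shock gene Hsp68. The domain to the right of the inner boundary was 47.5 kb long at stage 15 and 65 kb in both stage 5 lists.

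At brp and Syt1 the shorter domains of stage 15 in the full lists came with added boundaries while the outer ones were kept. For these genes both ends of the control domain were called at stage 15 with 2 boundaries between them. Both ends and at least 1 boundary between them were found for 16.1% of all genes. For elav, pros and nSyb at least 1 end of the control domain had no partner at stage 15 and at least 1 boundary lay inside, as for 29.4% of all genes. For para, Syx1A and repo, 3 of the 8, both ends were kept with none between, as for 32.1%, and no domain had lost an end without an added boundary, as 22.4% had. Set against the mof RNAi list, 4 domains (brp, Syt1, nSyb and repo) had both ends and at least 1 added boundary at stage 15, as for 16.9% of all genes. The domains of elav and pros had lost an end and were divided (34.2%), those of para and Syx1A were kept (27.5%), and none had lost an end alone (21.4%). After mof RNAi, set against control, the domains of 4 genes were kept (59.5%), those of pros, nSyb and repo had lost an end (21.3%), that of elav had lost an end and was divided (9.37%), and none was divided alone (9.79%). The stage 15 list holds more boundaries than the control list. With as many of its most negative boundaries as control has, 4 of the 8 domains were shorter at stage 15, beside 36.2% of all genes. The stage 15 domains of elav, brp, Syt1 and nSyb then had the same lengths as before, and that of pros was 132.5 kb.

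Other neuronal and glial genes, listed by their known roles, had longer stage 15 domains about as often as shorter ones. Of 51 listed genes 50 lie on the 5 arms. Their domain was shorter by more than 1 bin at stage 15 than in stage 5 control for 17 and longer for 19, or 34% and 38%, beside 39.9% and 28.1% of all protein-coding genes. Genes that share a domain were counted separately. Among those with a longer domain, ac, sc, l(1)sc and ase shared 1 at stage 15, as did Liprin-alpha and nrv2. After mof RNAi it was shorter for 7 and longer for 14, or 14% and 28%, beside 16.9% and 24.1%. At a boundary were 20 of the 50 at stage 15, 21 after mof RNAi and 23 in control, or 40%, 42% and 46%, beside 34.5%, 29.5% and 31.6% of all genes. These shares of all genes are not matched for length, and the median length of the 50 was 13.4 kb. Of the 1843 protein-coding genes of 7.00 to 28.0 kb, 50.2% were at a boundary at stage 15, 43.1% after mof RNAi and 44.9% in control. Of the 50, 11 were at a boundary in every list and 19 in none, beside 21.0% and 55.9% of all genes.

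Among the 15 genes of the synaptic vesicle and its release, 6 were at a boundary at stage 15, 7 after mof RNAi and 7 in control. In every list these included Csp, Rop, Syt4 and Nsf1, which encode a vesicle chaperone, a binding partner of syntaxin, a synaptotagmin and the ATPase that recycles SNARE complexes. The SNARE gene Snap25 spans 225 kb and held 5 boundaries inside at stage 15 and 4 in each stage 5 list. Its nearer end lay 19.2 kb from a boundary at stage 15, 6.71 kb after mof RNAi and 1.68 kb in control. The nearer end of Gad1, the GABA-synthesizing enzyme gene, was 1.58 kb from a boundary at stage 15 and 11.6 kb in control, and that of the vesicle GTPase gene Rab3 1.70 kb and 10.8 kb. The active zone gene Liprin-alpha stood the other way, at 6.40 kb at stage 15 and 1.40 kb in control. VAChT, the acetylcholine transporter gene nested in the ChAT locus, had a boundary 1.42 kb from an end after mof RNAi and 21.1 kb away in control.

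Of the 10 excitability genes, 5 were at a boundary at stage 15, 3 after mof RNAi and 5 in control, the potassium channel gene eag in every list. The nearest boundary of tipE, which encodes an auxiliary subunit of the para channel, was 18.5 kb away after mof RNAi and 0.999 kb away in control, and that of the potassium channel gene Shal 12.9 kb and 0.432 kb. Both were at a boundary at stage 15 (1.21 and 0.432 kb). The potassium channel genes sei (2.41 kb at stage 15, 9.47 kb in control) and Sh (0.747 and 5.69 kb) were at a boundary at stage 15 and not in control. The potassium channel subunit gene Hk (4.02 and 1.65 kb) and the sodium pump subunit gene nrv3 (4.18 and 1.68 kb) stood the other way. Inside Sh, which spans 139 kb, lay 4 boundaries at stage 15 and 3 in control. Of the 6 genes for neuronal RNA binding and the cytoskeleton or adhesion, 3 were at a boundary at stage 15, 2 after mof RNAi and 1 in control. The adhesion gene Nrg was at one in every list. Appl (0.501 kb at stage 15, 2.00 kb after mof RNAi, 13.5 kb in control) and the adhesion gene FasII (0.387 kb at stage 15, 4.61 kb in control) were not at one in control.

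Of the 10 genes of neuroblasts and early neuronal fate, 8 had a longer domain at stage 15 than in stage 5 control and 2 a shorter one, beside 28.1% and 39.9% of all genes. Of these genes ac, sc, l(1)sc and ase are neighbours that shared a domain at stage 15. Only brat was at a boundary at stage 15, against 4 genes after mof RNAi and 5 in control. The nearest boundary lay 59.7 kb from an end of l(1)sc at stage 15 and 0.279 kb from one in control, inside the gene. From mira, which encodes the adaptor that carries Prospero in dividing neuroblasts, the nearest boundary lay 19.9 kb and 2.38 kb away. For dpn, a neuroblast transcription factor gene, the distances were 5.17 kb at stage 15 and 0.170 kb in control. For nerfin-1, another such gene, they were 2.68 kb at stage 15, 4.11 kb after mof RNAi and 0.888 kb in control. Of the 9 glial genes, 5 were at a boundary in each list. gcm2, loco, nrv2 and moody were at one in all 3, while Eaat1, the glutamate transporter gene, was at one at stage 15 (0.575 kb) and not in control (3.57 kb). The glial fate and signalling gene pnt stood at 10.2 kb at stage 15 and 0.231 kb in control. It spans 55.9 kb and held 1 boundary inside in either list.

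**Figure D4:**
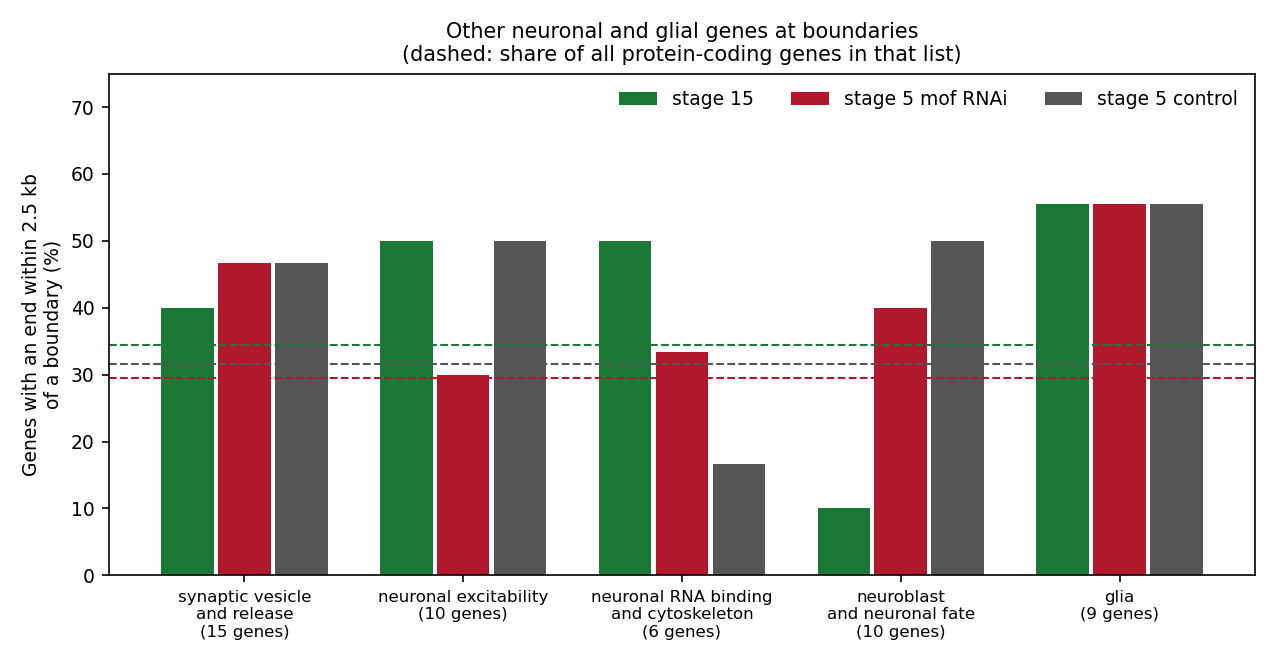
Share in percent of 5 groups of other neuronal and glial genes with an annotated end within 2.5 kb of a boundary (bars), in the stage 15, stage 5 mof RNAi and stage 5 control lists; dashed lines mark the shares of all protein-coding genes (34.5%, 29.5% and 31.6%). Those shares are not matched for gene length. The neuroblast group has 1 of 10 genes at a boundary at stage 15, 4 after mof RNAi and 5 in control, and the glial group 5 of 9 in each list.

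Among the 50 other genes, the distances of the nearer end over the 3 lists were most like those of Syt1 for wor, a neuroblast factor gene (summed absolute difference 5.41 kb), and the active zone gene Rim (6.42 kb). For nSyb they were most like those of ChAT (7.91 kb) and of VGlut, the vesicular glutamate transporter gene (7.91 kb). None of these 4 genes was at a boundary in any list, whereas Syt1 was at one at stage 15 and nSyb in stage 5 control, so the likeness lies in the size of the distances.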

How the data were processed

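The series holds 70 samples, of which the 13 Hi-C libraries were used and the other 57 (ATAC-seq, ChIP-seq and inputs) were not analysed here. Per the file names and labels, the authors deposited boundary lists on bins of 2.5 kb of dm6. The score of each boundary is the authors' deposited value on an unstated scale. Aligner, caller and thresholds: not given in the sources used here. The stage 5 lists were tied to groups by stage and condition in their names. A further stage 5 list was identical to the control list and was not used. Python 3.11.15, numpy 2.4.6 and pandas 2.3.3 were used.

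Genes came from a RefSeq release 6 table without strand, exons or sequence, so start sites, exon or intron position and the planned promoter sequences were not analysed here. Of the 51 other neuronal and glial genes, 48 matched by symbol and 2 by a synonym, and unc-13 is on an arm without boundaries. Genes counted as at a boundary if a midpoint fell no more than 2.5 kb from either end. Bins left out of a map were read from the numbers in the boundary names, where fewer numbers than bins separate neighbouring boundaries. The stage 15 numbers show 0 left out, but bins may have been numbered after any were removed. Distances and domains were tested on simulated lists.

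All 8 genes are described whatever their values. Named besides are the gene nearest to each boundary described and, of the other neuronal and glial genes, up to 4 per group and comparison whose call differed or that were at a boundary in every list. The genes, lists and rules were chosen with earlier results of these data known. Alternatives were other windows, edges in place of midpoints, other matching tolerances and the 50% most negative scores. Those without pros, with equal numbers of boundaries and with domains at most 0.5 times as long were added after seeing the data, as was the comparison with control domains of like length.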

Additional observations from a re-analysis of the deposited data

How the results depend on the processing

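No paired analysis was possible because each list was taken as 1 pooled list, without replicate columns, so no replicate could be left out. Of 47 alternative values, 35 lay within 1.5 times the reported count. With windows of 10 kb, 8 of the 8 genes were at a boundary at stage 15, 7 after mof RNAi and 6 in control, beside 67.2%, 60.5% and 63.6% of all protein-coding genes. The shares of all genes in this section are not matched for gene length. With windows of 1 kb, the other neuronal and glial genes at a boundary numbered 10 at stage 15, 7 after mof RNAi and 12 in control, beside 21.0%, 17.2% and 18.5% of all genes. With the 50% most negative scores they numbered 11 at stage 15 and 13 in control, beside 21.3% and 20.6% of all genes, a shorter stage 15 domain was found for 2 of the 8 genes, and the mof RNAi and control domains were the same for 7, while elav had no domain in the mof RNAi list. The cut leaves fewer boundaries in each list. With midpoints at least 1 bin from both gene ends, 1 of the 8 genes (pros) held a boundary in each list. Of all genes 2.72% did at stage 15, 2.88% after mof RNAi and 2.73% in control. The 71.2% of all genes that are as long as Syx1A or shorter, repo among them, could not meet this rule but stay in these shares. Calls near 2.5 kb, as at Syt1, nSyb and repo, are within 1 bin of the limit, and the unknown read depth sets no interval on any of them.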

Other observations

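The proneural genes ac, sc and l(1)sc and the neuroblast gene ase lie to the left of elav on X. At stage 15 all 4 lay in 1 domain of 125 kb, between the boundaries starting at 348751 and 473751. In stage 5 control ac and sc lay in a domain of 47.5 kb and l(1)sc and ase in one of 65 kb, divided by the boundary starting at 408751. After mof RNAi at stage 5, ac and sc lay in a domain of 45 kb. Most of l(1)sc and all of ase then lay in the domain of 122.5 kb that also held elav.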
